A study of Homo sapiens with 12 samples.

Results

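Reh cells treated with phorbol myristate acetate (PMA) were compared with untreated Reh cells by total RNA sequencing. Reh is an established B-cell precursor leukaemia line, which the labels name as a pro-B lymphoblastic leukaemia line and use as a non-Hodgkin control. The comparison took 4 of the 12 libraries of the series, 2 untreated and 2 treated with 2 ng/ml PMA, chosen by the treatment in their labels, and the other 8 libraries came from the Hodgkin lines KM-H2, L1236 and L428 and the Burkitt line Namalwa. The duplicates of each group came from 1 line, and whether they were separate cultures is not given in the sources used here. The paper describes PMA treatments of Reh cells that lasted hours, but does not state the time for these libraries. The study used PMA as a broad inflammatory stimulus on a control B-cell line.

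PMA is a stable mimic of diacylglycerol. It binds the protein kinase C (PKC) isoforms that respond to diacylglycerol and the Ras exchange factors of the RASGRP family, and so feeds the MAP kinase cascade and, through a complex that holds BCL10 and MALT1, NF-kappaB. The earliest transcripts after such a stimulus encode EGR and AP-1 factors and the phosphatases and Sprouty proteins that restrain the pathway. A precursor B cell, in turn, is known by its recombination enzymes RAG1 and RAG2, the surrogate light chain of the pre-B receptor, and the factors PAX5 and EBF1 that hold B-lineage identity.

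Levels are given as FPKM (fragments scaled to transcript length and to the library's mapped fragments), and differences as PMA-treated minus untreated means of log2(FPKM + 1) with their standard error, a scale that understates changes of low genes. A gene was called when the limma adjusted p was under 0.05 and the difference was at least 1 in size. Of 26210 genes, 11891 reached 1 FPKM in at least 2 of the 4 Reh libraries and were tested. FPKM carry no read depth, so depth is unknown. The p-values measure the spread between duplicates, which may be technical. It was pooled over the 6 groups of all 12 libraries and is not that of the Reh duplicates alone.

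The libraries differed in a way the treatment labels do not describe. RPS27, a ribosomal protein gene, was below 1 FPKM in both treated libraries and at 4987 and 5821 FPKM in the untreated ones. It was also below 3 FPKM in 1 of the 2 L1236 and 1 of the 2 L428 libraries, whose partners of the same line stood at 3981 and 6409 FPKM. RPL13AP5, a processed pseudogene, was listed at 0 in these same 4 libraries and at 2040 FPKM or more in the other 8, and RPL21 was below 1 FPKM in the same 4. Both treated Reh libraries and neither untreated one belonged to this class, so within Reh the class and the treatment cannot be told apart. Across all tested genes the class difference measured in the L1236 pair had a correlation of 0.717 with that in the L428 pair, and the PMA difference had correlations of 0.304 and 0.41 with them. These are descriptions across genes, and the 2 pairs share no library. A fit with a term for the class, estimated from the L1236 and L428 pairs, was therefore made after seeing the data, and calls are given for both fits. Ribosomal protein genes, genes with many pseudogenes and short RNA genes, 317 of the tested genes, were set aside from the descriptions below.

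PMA-treated Reh cells had 1580 genes called higher (13.3% of those tested) and 1816 called lower (15.3%). With the class term, 1148 of the higher genes (9.65%) and 1137 of the lower genes (9.56%) were called in the same direction. These 2 last shares are the background for each gene group. A member that passed the filter only through the treated libraries had to be higher there, so the share higher and the median of a group with such members are descriptions. The median difference over all tested genes was -0.08, and -0.11 with the class term. Duplicates had a correlation of 0.979 in untreated and 0.978 in treated cells over the tested genes. Among 101 tested ribosomal protein genes, 43 were called lower and 8 higher without the class term.

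**Figure D1:**
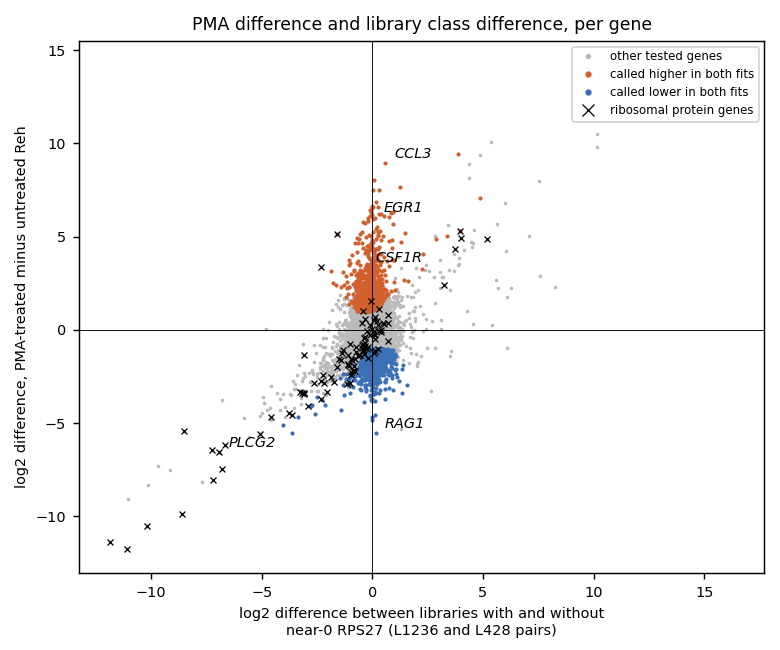
Each point is a tested gene. The vertical axis is the log2 difference between PMA-treated and untreated Reh, and the horizontal axis the log2 difference between the L1236 and L428 libraries with near-0 RPS27 and their partners. EGR1, CCL3, CSF1R and RAG1 lie close to 0 on the horizontal axis, while PLCG2 and many ribosomal protein genes (crosses) lie along the diagonal.

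The labelled cell type was checked against its markers. Of 14 precursor B-cell markers, 13 were at 1 FPKM or more in both untreated and both treated libraries, and VPREB1 was listed at 0 in all 4. The summed level of the 14 markers was 2989 and 3060 FPKM in untreated cells and 1342 and 1571 FPKM in treated cells. Of 8 monocyte and granulocyte markers, only MPO, the neutrophil peroxidase, reached 1 FPKM in both libraries of either group, and it was 24.8 and 32 FPKM in untreated and 6.44 and 5 FPKM in treated cells. CD14, LYZ, CD163, ELANE, S100A8, S100A9 and CSF3R were below 1 FPKM on average in both groups. Of 7 T and NK-cell markers, only NKG7, a granule membrane protein gene, reached 1 FPKM in both libraries of either group, and CD3D, CD3E, CD3G, CD2 and CD8A were at or near 0. The 4 erythroid markers summed to at most 0.126 FPKM in any of the 4 libraries. In bulk RNA, fewer cells of a type and less RNA per cell cannot be told apart.

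Of the 44 listed immediate response factors, 37 were tested, 32 were called higher and 2 lower, and 26 and 1 in both fits (70.3% and 2.7% of those tested). The median difference was 2.79, which is not read against that of all genes because 7 of the 37 passed the filter only through the treated libraries.

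The EGR zinc-finger factors, direct outputs of MAP kinase signalling, were almost absent before treatment. EGR1 stood at 0.138 and 0.0349 FPKM in the untreated libraries and 62.1 and 76.2 FPKM in the treated ones (log2 difference 6.01 ± 0.23, adjusted p = 1.8e-07). EGR2 went from 0.155 and 0.0394 FPKM to 85.6 and 76 FPKM (log2 difference 6.22 ± 0.27, adjusted p = 4.7e-07). EGR3 went from 0.0245 and 0 FPKM to 22.6 and 29.5 FPKM (difference 4.73 ± 0.17), while EGR4 stayed below 1 FPKM on average in both groups. The 2 groups were far apart for each of EGR1, EGR2 and EGR3, and the duplicates were close. NAB2, a corepressor that EGR factors induce and that limits them, went from 4.18 and 4.04 FPKM to 114 and 95.6 FPKM (difference 4.37 ± 0.27), and NAB1 from 11.8 and 12.1 FPKM to 34.3 and 37 FPKM.

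The promoters of the 4 members of the list with the largest increase are shown because these genes rose together from low levels. They are the 250 bases before the gene start from RefSeq (GRCh38.p14), 5′ to 3′ on the gene's strand: EGR2 at chr10:62819168-62819417 on the minus strand, EGR1 at chr5:138465229-138465478 on the plus strand, FOSB at chr19:45467746-45467995 on the plus strand and SGK1 at chr6:134318113-134318362 on the minus strand. Capitals mark CArG boxes, the binding motif of serum response factor.
EGR2: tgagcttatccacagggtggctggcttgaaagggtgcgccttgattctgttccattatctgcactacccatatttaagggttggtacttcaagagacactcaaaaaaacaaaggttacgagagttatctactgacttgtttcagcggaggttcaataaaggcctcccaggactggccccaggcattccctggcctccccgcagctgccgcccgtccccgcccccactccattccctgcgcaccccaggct
EGR1: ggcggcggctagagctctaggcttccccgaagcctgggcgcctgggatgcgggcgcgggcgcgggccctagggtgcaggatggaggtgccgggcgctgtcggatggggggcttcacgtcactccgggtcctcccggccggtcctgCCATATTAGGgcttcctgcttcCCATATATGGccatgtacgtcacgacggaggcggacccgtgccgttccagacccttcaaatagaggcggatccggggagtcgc
FOSB: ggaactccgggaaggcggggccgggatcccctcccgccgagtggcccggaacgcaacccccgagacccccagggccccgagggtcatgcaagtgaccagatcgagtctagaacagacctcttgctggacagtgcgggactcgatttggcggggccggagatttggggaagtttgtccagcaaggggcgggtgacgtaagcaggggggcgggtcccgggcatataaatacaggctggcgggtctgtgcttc
SGK1: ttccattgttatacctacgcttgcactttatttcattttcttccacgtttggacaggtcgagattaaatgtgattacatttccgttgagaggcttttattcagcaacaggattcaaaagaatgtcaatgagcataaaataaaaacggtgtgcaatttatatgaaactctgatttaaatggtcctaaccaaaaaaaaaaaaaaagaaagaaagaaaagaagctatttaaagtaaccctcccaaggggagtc
The EGR1 promoter held 2 CArG boxes, starting at positions -105 and -83 from the gene start. EGR2, FOSB and SGK1 had no match to a CArG box, an AP-1 site, a CRE or an NF-kappaB site in a window from 250 bases before to 50 after the start. Only the first listed start of each gene was searched. Promoters at other starts of the same gene were not examined, and which start was used in these cells is unknown.

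Of the 44 listed members, 33 had a promoter in the RefSeq table. The CRE (TGACGTCA, identical on both strands) was found in 3 of them (9.09%), those of JUND, MAFF and PPP1R15A, against 1.98% of all 27305 promoters. A CArG box was found in 1 of 33 (3.03%, against 1.29% of all), and an AP-1 site (TGACTCA, or TGAGTCA on the other strand) in 1 of 33 (3.03%, against 4.92%), that of FOSL2. NF-kappaB sites were found in 2 of 33 (6.06%, against 5.72%), those of EGR4 and HES1. All motifs were searched on both strands in the same 300-base windows, and a match describes letters only.

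AP-1 genes encode the FOS and JUN partners. FOSB went from 0.321 and 0.473 FPKM to 65.8 and 74.7 FPKM (log2 difference 5.67 ± 0.36, adjusted p = 3.4e-06), and FOS from 0.873 and 1.31 FPKM to 62.7 and 44.5 FPKM (log2 difference 4.70 ± 0.55, adjusted p = 1.8e-04). With the class term these differences were 4.73 and 3.40. FOSL2 rose from 1.36 and 1.27 FPKM to 60.45 and 33.7 FPKM (difference 4.32 ± 0.29). JUNB was the most abundant JUN gene after treatment, at 245 and 188 FPKM from 22.1 and 18.6 FPKM (difference 3.34 ± 0.26), and JUND rose from 14.35 and 8.54 FPKM to 77.7 and 71 FPKM (difference 2.64 ± 0.37). JUN itself was low, at 2.43 and 1.31 FPKM untreated and 13.65 and 5.51 FPKM treated, and its call (adjusted p = 0.041) was lost with the class term (adjusted p = 0.51) and without treated library 0 or either untreated library (adjusted p up to 0.28). BATF, an AP-1 factor of lymphocytes, rose from 1.2 and 1.66 FPKM to 19.8 and 32.7 FPKM (difference 3.45 ± 0.36). ATF3, a stress-response relative, was uncalled at 6.42 and 6.15 FPKM untreated and 4.93 and 4.54 FPKM treated (difference -0.35 ± 0.43, adjusted p = 0.55). With the class term ATF3 was called lower (difference -1.33 ± 0.43, limma adjusted p = 0.0465). FOSL1 reached only 5.06 and 1.85 FPKM in treated cells. Its difference of 1.55 was 1.01 with an adjusted p of 0.1 without treated library 0, and its call was also lost without either untreated library.

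Other immediate response genes were called in either direction or gave no call. SGK1, a growth-factor and stress-regulated kinase, rose from 2.05 and 1.37 FPKM to 105 and 104 FPKM (log2 difference 5.29 ± 0.33, adjusted p = 3.6e-06). KLF6, a zinc-finger factor, rose from 1.96 and 1.17 FPKM to 115 and 80.9 FPKM (difference 5.26 ± 0.44), and NR4A1, an orphan nuclear receptor, from 0.606 and 0.264 FPKM to 64.6 and 34.3 FPKM (difference 5.08 ± 0.45). NR4A2 and NR4A3 stayed below 1 FPKM on average in both groups. IER3 rose from 5.16 and 4.92 FPKM to 181 and 129 FPKM and IER2 from 13.5 and 10.8 FPKM to 186 and 266 FPKM, with differences of 4.67 ± 0.36 and 4.10 ± 0.33. The ZFP36 family, which destabilises AU-rich mRNAs, divided by member. ZFP36 rose from 8.78 and 3.3 FPKM to 75.3 and 64 FPKM and ZFP36L1 from 28.1 and 17.2 FPKM to 319 and 265 FPKM, whereas ZFP36L2 fell from 29.96 and 20.9 FPKM to 2.2 and 2.66 FPKM (log2 difference -2.93 ± 0.34, adjusted p = 1.9e-04). MYC, the growth regulator, was lower in treated cells, at 21.1 and 47.8 FPKM from 147 and 140.1 FPKM, and its call (difference -2.14 ± 0.40, adjusted p = 0.0027) was lost with the class term (difference -1.38, adjusted p = 0.053).

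Of the 28 listed feedback regulators of MAP kinase and G-protein signalling 19 were tested, 13 were called higher and 2 lower, and 13 and 2 in both fits (68.4% and 10.5%), with a median difference of 2.17. Of the 19 members tested, 5 passed the filter only through the treated libraries. RGS1, which speeds the shut-off of G proteins downstream of chemokine receptors, rose from 0.829 and 0.425 FPKM to 303.5 and 356 FPKM (log2 difference 7.67 ± 0.46, adjusted p = 2.6e-06), and was the member with the largest difference. With the class term the RGS1 difference was 6.42. RGS2 rose from 7.02 and 6.76 FPKM to 171 and 159 FPKM (difference 4.39 ± 0.37) and RGS16 from 0.812 and 0.459 FPKM to 7.08 and 5.42 FPKM (difference 2.15 ± 0.38).

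Sprouty proteins restrain receptor signalling to ERK. SPRY2 rose from 5.47 and 6.97 FPKM to 491 and 406 FPKM (log2 difference 5.96 ± 0.20, adjusted p = 1.6e-07) and SPRY4 from 0 and 0.0432 FPKM to 7.54 and 12 FPKM (difference 3.37 ± 0.20). SPRY1 was uncalled at 1.81 and 2.08 FPKM untreated and 1.21 and 1.14 FPKM treated (difference -0.44 ± 0.16). TRIB1, a pseudokinase scaffold, rose from 4.95 and 6.09 FPKM to 460.5 and 401 FPKM (difference 6.05 ± 0.32), and PHLDA1 from 1.12 and 1.69 FPKM to 74.9 and 39.1 FPKM (difference 4.53 ± 0.28). Some of these genes were already expressed and others near 0 in untreated cells.

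The dual-specificity phosphatases, which remove phosphates from MAP kinases, did not move alike. DUSP5, which acts on nuclear ERK, was listed at 0 in both untreated libraries and at 39.8 and 11.9 FPKM in the treated ones (adjusted p = 6.8e-05). DUSP6, which acts on cytoplasmic ERK, rose from 98.9 and 128 FPKM to 578 and 453 FPKM (difference 2.17 ± 0.38), and DUSP10 from 1.14 and 0.702 FPKM to 26.8 and 21 FPKM (difference 3.69 ± 0.34). DUSP1 fell instead, from 208 and 153.5 FPKM to 43.8 and 20.4 FPKM (log2 difference -2.54 ± 0.55, adjusted p = 0.0053). The DUSP1 difference was -3.65 with the class term, and -2.00 and uncalled without treated library 1. SOCS2, an inhibitor of cytokine receptor signalling, fell from 19 and 18.9 FPKM to 3.27 and 3.96 FPKM (difference -2.12 ± 0.24).

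Among the receptors and relays of phorbol esters, 20 of 27 listed genes were tested, 6 were called higher and 3 lower, and 5 and 2 in both fits (25% and 10%), with 2 of the 20 having passed the filter only through the treated libraries. The PKC isoforms kept different levels. PRKCB was the most abundant tested PKC gene and was uncalled, at 33.9 and 39.2 FPKM untreated and 37 and 32.75 FPKM treated (difference -0.06 ± 0.26). PRKCH rose from 2.43 and 1.85 FPKM to 16.55 and 12.7 FPKM (log2 difference 2.31 ± 0.19, adjusted p = 2.2e-05), and PRKCQ fell from 10.9 and 10.5 FPKM to 2.54 and 4.34 FPKM (log2 difference -1.43 ± 0.29, adjusted p = 0.0043). PRKCA, PRKCD, PRKCE and PRKCI were uncalled, with differences between -0.58 and 0.58.

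Of the relays to NF-kappaB, the adaptor BCL10 rose from 6.47 and 6.95 FPKM to 34.9 and 25.1 FPKM (difference 1.99 ± 0.25). MALT1, its protease partner, was at 13 and 13.7 FPKM untreated and 30.8 and 40.6 FPKM treated, a call (adjusted p = 0.0047) lost with the class term (adjusted p = 0.089). RASGRP1, a diacylglycerol-activated Ras exchange factor, fell from 13.2 and 11.5 FPKM to 3.94 and 3.83 FPKM (log2 difference -1.45 ± 0.21, adjusted p = 5.8e-04), and RASGRP2 was uncalled (difference -0.52 ± 0.31).

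Of the 26 NF-kappaB subunits, regulators and targets, all tested, 8 were called higher and 2 lower, and 7 and 2 in both fits (26.9% and 7.69%), with a median difference of 0.51 (0.21 with the class term), and 2 of the 26 had passed the filter only through the treated libraries. The subunits of the alternative pathway rose. RELB rose from 2.13 and 1.04 FPKM to 13.3 and 12.8 FPKM (log2 difference 2.48 ± 0.37, adjusted p = 6.9e-04) and NFKB2 from 8.69 and 5.83 FPKM to 26.3 and 28.6 FPKM (log2 difference 1.80 ± 0.29, adjusted p = 0.0012). The subunits RELA, NFKB1 and REL were uncalled, with differences of 0.60 ± 0.31, 0.63 ± 0.29 and -0.07 ± 0.27. RELB in the treated libraries was within the range of 12.5 to 42.8 FPKM seen over the 8 libraries of the other 4 lines.

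The NF-kappaB feedback genes NFKBIA and TNFAIP3 gave no call. NFKBIA, the main inhibitor, was at 67.5 and 77.3 FPKM untreated and 83.5 and 64.6 FPKM treated (difference 0.02 ± 0.27), and TNFAIP3, the A20 deubiquitinase, at 95.2 and 73.8 and 41.9 and 63.95 FPKM (difference -0.68 ± 0.47). For both genes the treated and untreated libraries were close or overlapped. TRAF1 rose from 1.02 and 0.804 FPKM to 18.5 and 14.8 FPKM (difference 3.20 ± 0.26), NFKBID from 3.56 and 3.32 FPKM to 25.9 and 23.7 FPKM (difference 2.54 ± 0.38), and BIRC3, an apoptosis inhibitor, from 0.348 and 0.122 FPKM to 4.79 and 3.93 FPKM (difference 2.12 ± 0.27). IKBKE fell from 4.7 and 6 FPKM to 0.589 and 1.07 FPKM (difference -1.80 ± 0.34).

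**Figure D2:**
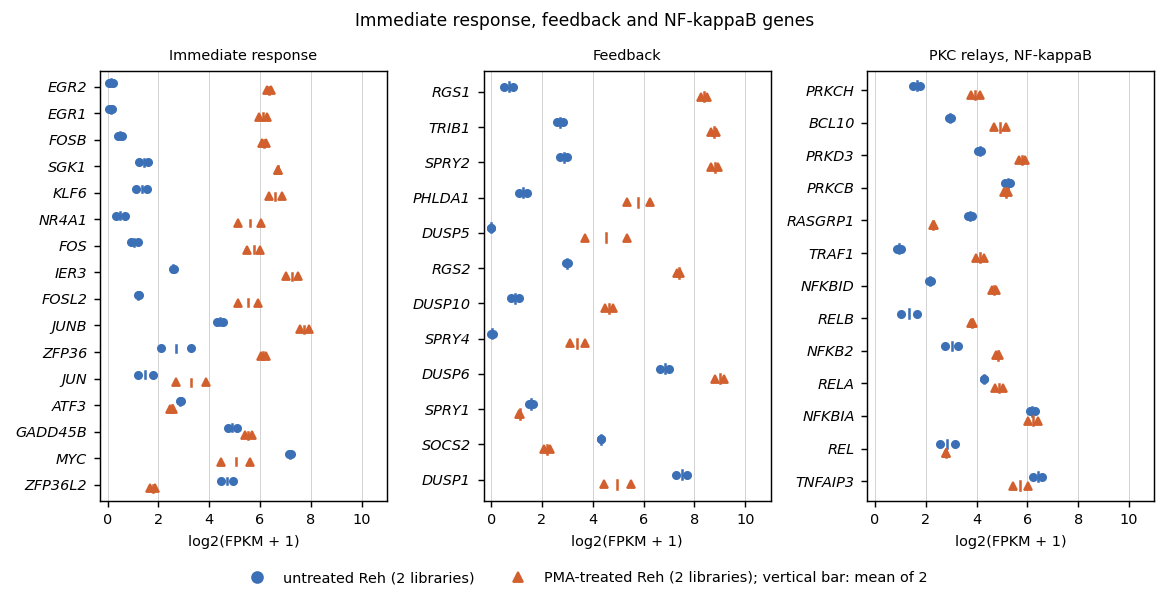
Levels of immediate response, feedback, PKC relay and NF-kappaB genes as log2(FPKM + 1) in the 2 untreated (blue circles) and 2 PMA-treated (orange triangles) Reh libraries, with the mean of 2 as a bar. EGR1 moved from near 0 to 62.1 and 76.2 FPKM, DUSP1 and ZFP36L2 lie lower in treated cells, and NFKBIA and REL overlap between groups.

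Of the 28 listed chemokine genes 8 were tested, 6 were called higher and 1 lower, and 6 and 1 in both fits (75% and 12.5%), and the 6 that rose passed the filter only through the treated libraries. CCL3, the macrophage inflammatory protein that draws monocytes and lymphocytes, was listed at 0 in both untreated libraries and at 634 and 374 FPKM in the treated ones (adjusted p = 1.7e-06). CCL4, its close relative, was listed at 0 in both untreated libraries and at 351 and 90.3 FPKM in the treated ones (adjusted p = 1.9e-05). The copies CCL3L3 at 85.4 and 55.9 FPKM and CCL4L2 at 403 and 24.7 FPKM in treated cells are nearly identical to them, so the division of reads between each pair is uncertain, and the treated duplicates differed most for CCL4L2. CCL4 was below 1 FPKM in the 6 libraries of the Hodgkin lines and at 3.11 and 11.7 FPKM in Namalwa.

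CXCL8, the neutrophil chemokine interleukin 8, rose from 0.732 and 0.884 FPKM to 73.8 and 47.8 FPKM (log2 difference 5.06 ± 0.30, adjusted p = 2.2e-06). CCL20 was listed at 0 in both untreated libraries and reached 1.95 and 2.78 FPKM. CCL5 fell from 6.38 and 3.68 FPKM to 0.184 and 1.4 FPKM (log2 difference -1.80 ± 0.35, adjusted p = 0.0034). The interferon-induced chemokines CXCL9, CXCL10 and CXCL11 were listed at 0 in all 4 libraries.

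Of 48 cytokines and growth factors 17 were tested, 7 were called higher and 2 lower, and 6 and 2 in both fits (35.3% and 11.8%), with 2 of the 17 having passed the filter only through the treated libraries. HBEGF, a shed ligand of the EGF receptor, rose from 3.03 and 1.61 FPKM to 161 and 115 FPKM (log2 difference 5.40 ± 0.31, adjusted p = 2.2e-06). Of the neighbouring lymphotoxin and TNF genes, LTA rose from 6.8 and 10.6 FPKM to 79.6 and 108.5 FPKM (difference 3.31 ± 0.25). TNF was already expressed at 67.7 and 111 FPKM and rose to 231 and 389 FPKM (log2 difference 1.78 ± 0.33, adjusted p = 0.0024). LTB was uncalled at 63.5 and 91.2 FPKM untreated and 50.2 and 37.1 FPKM treated (difference -0.80 ± 0.42).

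PDGFA rose from 3.22 and 3.87 FPKM to 38.1 and 39.2 FPKM and TGFB1 from 5.54 and 5.16 FPKM to 56.5 and 50.4 FPKM, with differences of 3.13 ± 0.24 and 3.10 ± 0.52. With the class term these differences were 3.61 and 4.44. TNFSF10, the death ligand TRAIL, fell from 3.9 and 3.96 FPKM to 0.522 and 0.275 FPKM (difference -1.82 ± 0.40, and -2.90 with the class term), as did IL12A, from 2.33 and 2.63 FPKM to 0.153 and 0.386 FPKM (difference -1.46 ± 0.26). IL11 was called higher, but the treated duplicates were at 12.2 and 1.42 FPKM. Its call was lost with the class term (difference 2.48 ± 0.82, limma adjusted p = 0.051) and without either untreated library. Its difference of 2.40 was 1.17 with an adjusted p of 0.0042 without treated library 0. IL1B was uncalled, at 2.39 and 3.39 FPKM untreated and 1.22 and 8.15 FPKM treated. IL2, IL4, IFNB1 and IFNG were listed at 0 in all 4 libraries, and IL6, IL10 and CSF2 stayed below 1 FPKM on average in both groups.

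Of the 39 listed surface proteins of activation and adhesion 28 were tested, 14 were called higher and 4 lower, and 13 and 3 in both fits (46.4% and 10.7%), with 4 of the 28 having passed the filter only through the treated libraries. EMP1, a tetraspan membrane protein, rose from 0.0775 and 0.157 FPKM to 523 and 160.4 FPKM (log2 difference 8.02 ± 0.42, adjusted p = 1.1e-06). TM4SF1, a tetraspanin-like protein of endothelial and tumour cells, was listed at 0 in both untreated libraries and at 291 and 111 FPKM in the treated ones (adjusted p = 6.3e-07). For both genes treated library 0 was the higher of the duplicates.

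The integrin subunits went in different directions. ITGA6, a laminin receptor subunit, rose from 1.69 and 2.08 FPKM to 553 and 195 FPKM (log2 difference 6.84 ± 0.40, adjusted p = 2.2e-06). ITGB2, the common beta subunit of the leukocyte integrins, rose from 6.85 and 4.46 FPKM to 574 and 470.4 FPKM (log2 difference 6.31 ± 0.24, adjusted p = 1.9e-07), while its alpha partners ITGAL and ITGAX stayed below 1 FPKM on average and ITGAM was uncalled at 2.56 and 2.26 FPKM untreated and 1.23 and 2.97 FPKM treated. ITGA4, the alpha 4 subunit that binds VCAM1, fell from 85 and 92.5 FPKM to 20.1 and 23.8 FPKM (log2 difference -1.97 ± 0.21, adjusted p = 1.1e-04). ITGB1, its partner, was uncalled (difference 0.99 ± 0.26).

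SEMA7A, a membrane-bound semaphorin, rose from 0.735 and 1.03 FPKM to 139 and 79.8 FPKM (difference 5.83 ± 0.36). CD69, the early activation antigen, rose from 2.99 and 2.56 FPKM to 61.3 and 64.5 FPKM (log2 difference 4.08 ± 0.34, adjusted p = 2.0e-05). CD40, the receptor through which T cells help B cells, rose from 3.57 and 5.08 FPKM to 54.4 and 64.45 FPKM (log2 difference 3.51 ± 0.24, adjusted p = 5.4e-06), and the adhesion molecule ICAM1 from 3.78 and 1.75 FPKM to 14.8 and 14.8 FPKM (difference 2.12 ± 0.28). CD80, CD86 and CD44 stayed below 1 FPKM on average in both groups, and CD83 was uncalled (difference 0.32 ± 0.24).

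Of the TNF receptor superfamily 12 of 19 listed were tested, 7 were called higher and 3 lower, and 5 and 2 in both fits (41.7% and 16.7%), with 2 of the 12 having passed the filter only through the treated libraries. TNFRSF12A, the receptor of TWEAK, rose from 0.951 and 1.35 FPKM to 33 and 41.9 FPKM (difference 4.16 ± 0.55), and TNFRSF9, known as 4-1BB, was listed at 0 in both untreated libraries and at 2.95 and 7.69 FPKM in the treated ones. NGFR, the low-affinity neurotrophin receptor, went from 0.628 and 0.509 FPKM to 5.52 and 29.7 FPKM, a difference of 3.17 that was 2.06 with an adjusted p of 0.0046 without treated library 1. FAS, the death receptor, was called higher (difference 2.22 ± 0.48) and lost its call with the class term (adjusted p = 0.076), and without untreated or treated library 0 (adjusted p up to 0.06). TNFRSF1B fell from 3.4 and 3.95 FPKM to 0.388 and 0.436 FPKM (difference -1.73 ± 0.19). TNFRSF8, the Hodgkin antigen CD30, and TNFRSF11A stayed below 1 FPKM on average in both groups.

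CSF1R, the receptor of macrophage colony-stimulating factor and the study's reporter gene of repeat-driven transcription, rose from 0.285 and 0.202 FPKM to 11.8 and 11.15 FPKM (log2 difference 3.33 ± 0.21, adjusted p = 3.8e-06). The gene lies at chr5:149432854-149492935 on the minus strand of GRCh37, the build also called hg19. The treated level was above the 0.114 to 2.05 FPKM of the 8 libraries of the other lines, a comparison given as levels without a test. Gene-level FPKM do not separate transcripts that start at the repeat from those that start at the usual promoters. CBFA2T3, the corepressor also called ETO2 (chr16:88941266-89043615, minus strand), fell from 6.68 and 4.43 FPKM to 0.825 and 0.475 FPKM (log2 difference -1.98 ± 0.20, adjusted p = 7.5e-05). It was listed at 0 in all 4 libraries of L1236 and L428 and below 1 FPKM in KM-H2. RUNX1 was uncalled at 26.1 and 15.4 FPKM untreated and 23 and 25.3 FPKM treated (difference 0.25 ± 0.41).

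**Figure D3:**
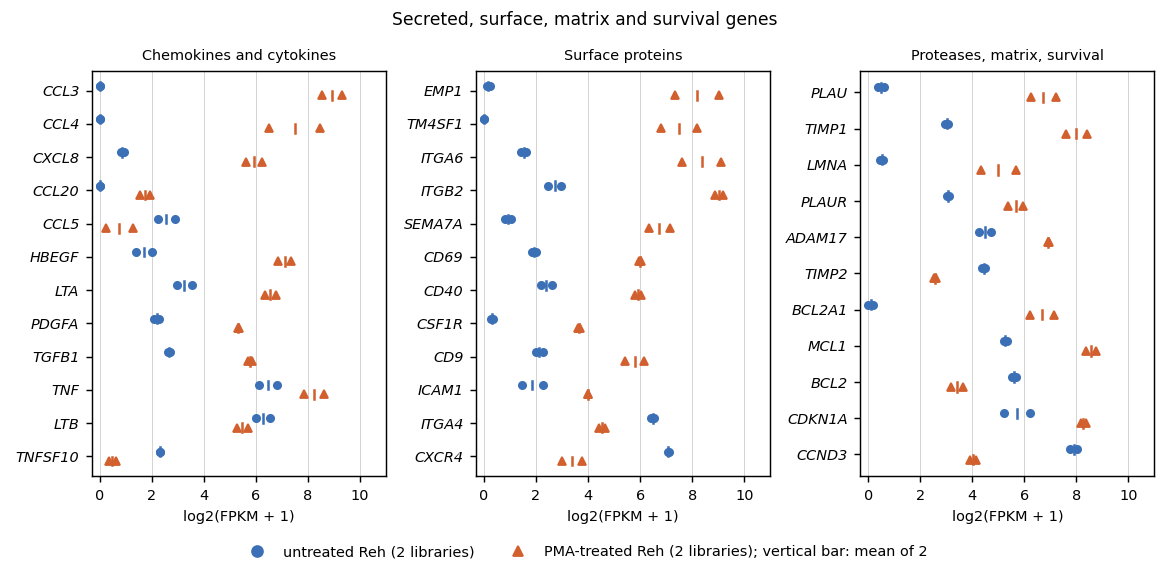
Levels of chemokine, cytokine, surface, protease and survival genes as log2(FPKM + 1) in the 2 untreated (blue circles) and 2 PMA-treated (orange triangles) Reh libraries, with the mean of 2 as a bar. CCL3, CCL4 and TM4SF1 are listed at 0 in untreated cells, and CXCR4, ITGA4, TIMP2, BCL2 and CCND3 lie lower in treated cells.

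Of the 35 listed secreted proteases, protease inhibitors and matrix-linked genes 1 was set aside and 22 were tested, 16 were called higher and 2 lower, and 16 and 2 in both fits (72.7% and 9.09%), 9 of the tested members having passed only through the treated libraries. PLAU, the urokinase protease that activates plasminogen, rose from 0.509 and 0.282 FPKM to 148 and 75.1 FPKM (log2 difference 6.26 ± 0.43, adjusted p = 6.3e-06), and its receptor gene PLAUR from 7.64 and 7.23 FPKM to 61.6 and 39.96 FPKM (difference 2.59 ± 0.26). TIMP1, an inhibitor of matrix metalloproteases, rose from 7.42 and 6.7 FPKM to 336 and 194 FPKM (log2 difference 4.99 ± 0.31, adjusted p = 3.0e-06), whereas TIMP2 fell from 21.5 and 19.9 FPKM to 5.05 and 4.83 FPKM (log2 difference -1.87 ± 0.16, adjusted p = 2.1e-05). MMP7 was listed at 0 in both untreated libraries and at 13.2 and 5.13 FPKM in the treated ones. ADAM17, the sheddase that releases TNF and HBEGF, rose from 25.7 and 18.2 FPKM to 122 and 119 FPKM (difference 2.42 ± 0.25). LMNA, the gene of the nuclear lamins A and C, rose from 0.484 and 0.377 FPKM to 50.6 and 18.9 FPKM (difference 4.49 ± 0.42). VIM, vimentin, was already abundant and rose from 469 and 423 FPKM to 1648 and 1288 FPKM, and without treated library 0 its difference was 1.53 with an adjusted p of 0.054.

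More genes of B-lineage identity fell than rose. Among 36 listed transcription factors 31 were tested, 14 were called lower and 3 higher, and 12 and 3 in both fits (38.7% and 9.68%). The median difference was -0.98. PAX5, the factor that commits cells to the B lineage, fell from 64.1 and 52.5 FPKM to 11.3 and 17.35 FPKM (log2 difference -1.97 ± 0.37, adjusted p = 0.0026). EBF1, which acts with it, fell from 82.9 and 66.2 FPKM to 24.4 and 15 FPKM (log2 difference -1.90 ± 0.26, adjusted p = 4.6e-04). Both genes were still above 10 FPKM in each treated library. IKZF1, the Ikaros factor, fell from 81.7 and 92.7 FPKM to 9.2 and 13 FPKM (difference -2.88 ± 0.29), and BACH2 from 32.1 and 14.7 FPKM to 2.95 and 1.47 FPKM (difference -2.86 ± 0.38).

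ERG, an ETS factor of haematopoietic progenitors, fell from 145 and 108 FPKM to 3.62 and 3.25 FPKM (log2 difference -4.83 ± 0.19, adjusted p = 2.5e-07), the factor with the largest decrease. MYB, which sustains progenitor growth, fell from 161 and 99 FPKM to 9.55 and 17.5 FPKM (log2 difference -3.19 ± 0.51, adjusted p = 0.0011), and LEF1, a WNT pathway factor of pro-B cells, from 243.5 and 218 FPKM to 29.3 and 30.1 FPKM (difference -2.91 ± 0.25). FOXO1, which drives RAG expression, fell from 34.1 and 21.2 FPKM to 7.04 and 11 FPKM (difference -1.51 ± 0.33), and its difference was -1.22 with an adjusted p of 0.064 without treated library 0 and -1.18 with an adjusted p of 0.063 without untreated library 0. TCF3, the gene of the E proteins E12 and E47, was lower at 51.7 and 44.8 FPKM from 142 and 108.5 FPKM, and its difference of -1.35 was -0.99 with the class term, just under the size threshold.

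ID2, an inhibitor of E proteins, rose from 8.48 and 10.3 FPKM to 246 and 333 FPKM (log2 difference 4.79 ± 0.58, adjusted p = 2.3e-04), while its relative ID3 fell from 154 and 182 FPKM to 53.6 and 29.6 FPKM (difference -2.04 ± 0.37). SOX4 was higher at 100.5 and 133 FPKM from 59.7 and 49.8 FPKM, a difference of 1.07 that was 0.87 without treated library 1 and 0.94 without untreated library 1. MEF2C, XBP1, ELF1 and TCF12 were the most abundant uncalled factors, with differences between -0.40 and 0.89. SPI1, the myeloid and B-cell factor PU.1, was uncalled at 24.9 and 22.4 FPKM untreated and 14.9 and 13.9 FPKM treated (difference -0.68 ± 0.18).

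Recombination, pre-B receptor and proximal signalling genes were lower in most part of those called. Of 31 listed 28 were tested, 15 were called lower and 4 higher, and 14 and 3 in both fits (50% and 10.7%), with a median difference of -1.25. RAG1, a subunit of the V(D)J recombinase, fell from 435 and 384 FPKM to 5.09 and 11.85 FPKM (log2 difference -5.53 ± 0.37, adjusted p = 5.2e-06). RAG2, the other subunit, fell from 161 and 152.5 FPKM to 3.59 and 7.37 FPKM (log2 difference -4.67 ± 0.28, adjusted p = 2.4e-06). DNTT, the polymerase that adds bases at the joints, was uncalled, at 87.9 and 103 FPKM untreated and 75 and 41.6 FPKM treated (difference -0.76 ± 0.26).

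IGLL1, the lambda-like part of the surrogate light chain, fell from 513 and 472 FPKM to 39.9 and 69.7 FPKM (log2 difference -3.20 ± 0.29, adjusted p = 3.8e-05). Of the signalling chains of the receptor, CD79B fell from 394 and 414 FPKM to 39 and 86.2 FPKM (log2 difference -2.78 ± 0.35, adjusted p = 2.8e-04). CD79A was higher, at 947 and 1102 FPKM from 336 and 428.5 FPKM (difference 1.43 ± 0.49, limma adjusted p = 0.042). With the class term its difference was 1.56 ± 0.70, and the wider error lost the call (adjusted p = 0.13). The call was also lost without any 1 of the 4 libraries. VPREB3 fell from 196.5 and 195 FPKM to 49.2 and 23.8 FPKM, and without treated library 1 its difference was -1.97 with an adjusted p of 0.062.

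Of the proximal signalling genes, BLNK, the adaptor that links SYK to phospholipase C, fell from 67.4 and 63 FPKM to 1.69 and 1.9 FPKM (log2 difference -4.57 ± 0.24, adjusted p = 1.1e-06). SYK fell from 43.1 and 44.8 FPKM to 16.2 and 21.15 FPKM (difference -1.20 ± 0.23), and BTK was uncalled (difference -0.58 ± 0.24). The tyrosine kinase BLK and the exchange factor VAV3 fell, with differences of -2.23 ± 0.24 and -2.59 ± 0.21. CD22 and PTPN6, which dampen B-cell receptor signals, rose from 39.4 and 32.6 FPKM to 74.85 and 101 FPKM and from 15.7 and 12.6 FPKM to 30.5 and 43.9 FPKM. PLCG2, the phospholipase itself, was at 345 and 335 FPKM in untreated and 2.42 and 2.61 FPKM in treated cells, but it differed between the class libraries and their partners in L1236 and L428 by -6.89, and with the class term its difference was 0.29. The call of PLCG2 was also lost without any 1 of the 4 Reh libraries. Its standard error of 2.21 was pooled over all groups, while its Reh duplicates were close. PLCG2 was at 386 and 0.817 FPKM in the L1236 pair and at 345 and 4.26 FPKM in the L428 pair.

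Progenitor and B-cell surface proteins gave 10 lower and 5 higher calls among 22 tested of 39 listed, and 8 and 4 in both fits (36.4% and 18.2%). MME, the CD10 antigen of common acute lymphoblastic leukaemia, fell from 123 and 118 FPKM to 7.72 and 11.1 FPKM (log2 difference -3.57 ± 0.22, adjusted p = 2.8e-06). IL7R, the receptor chain for the cytokine that sustains precursor B cells, fell from 146 and 183 FPKM to 15.4 and 21.4 FPKM (log2 difference -3.10 ± 0.24, adjusted p = 1.4e-05). FLT3, the progenitor cytokine receptor, fell from 54.6 and 43 FPKM to 6.25 and 8.1 FPKM (difference -2.61 ± 0.19), and CD24 from 504 and 589.8 FPKM to 121 and 147 FPKM (difference -2.02 ± 0.36). The shared cytokine receptor chain IL2RG rose from 29.3 and 26.5 FPKM to 215 and 148 FPKM (difference 2.64 ± 0.31), IL4R from 1.48 and 1.38 FPKM to 12.9 and 9.65 FPKM (difference 2.32 ± 0.28), and the tetraspanins CD9 and CD53 from 3.76 and 2.94 FPKM to 69.8 and 42.2 FPKM and from 78.7 and 105 FPKM to 465 and 358 FPKM. CD99, CRLF2, IL3RA, CSF2RA and P2RY8, 5 genes of the pseudoautosomal region, were listed at 0 in all 12 libraries, so no level was read for them.

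Among migration receptors 8 of 25 listed were tested, and 3 were called lower and 2 higher. In both fits 2 were lower and 1 higher (25% and 12.5%, beside 9.56% and 9.65% of all tested genes). Of the 8 tested, 1 had passed the filter only through the treated libraries. CXCR4, the receptor that holds precursor B cells in the bone marrow, fell from 134 and 135 FPKM to 6.9 and 12.5 FPKM (log2 difference -3.71 ± 0.33, adjusted p = 2.9e-05). S1PR4, a sphingosine phosphate receptor, fell from 82.9 and 91.9 FPKM to 20.5 and 13.1 FPKM (difference -2.34 ± 0.26), and S1PR3 rose from 0.238 and 0.513 FPKM to 4.13 and 4.67 FPKM (difference 1.98 ± 0.25).

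**Figure D4:**
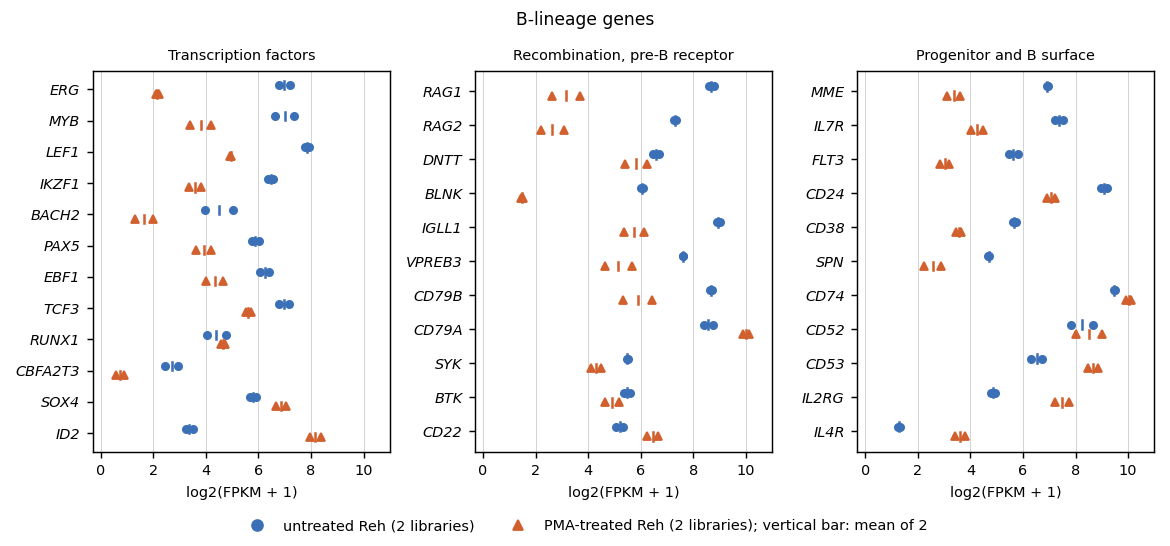
Levels of B-lineage factors, recombination and pre-B receptor genes, and surface proteins as log2(FPKM + 1) in the 2 untreated (blue circles) and 2 PMA-treated (orange triangles) Reh libraries, with the mean of 2 as a bar. RAG1 went from 435 and 384 FPKM to 5.09 and 11.9 FPKM, and the 2 groups overlap for RUNX1.

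Of the 38 listed interferon-stimulated genes 3 were set aside and 30 tested, 14 were called lower and 2 higher, and 14 and 1 in both fits (46.7% and 3.33%), with a median difference of -0.85, and -1.47 with the class term. MX1, an antiviral GTPase, fell from 11 and 13.6 FPKM to 1.27 and 1.58 FPKM (log2 difference -2.45 ± 0.49, adjusted p = 0.0035), OAS3, which starts RNase L activation, from 15.8 and 15.5 FPKM to 3.05 and 2.71 FPKM (difference -2.11 ± 0.24), and USP18, which removes ISG15, from 7.56 and 9.21 FPKM to 0.661 and 0.954 FPKM (difference -2.38 ± 0.33). IRF1, an interferon regulatory factor, fell from 54.5 and 64.5 FPKM to 14.4 and 12.25 FPKM (difference -2.08 ± 0.19). ISG15 was uncalled (difference -0.66 ± 0.43). STAT3, a cytokine-activated factor, rose from 9.97 and 11.8 FPKM to 42.7 and 34.35 FPKM (difference 1.73 ± 0.22).

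Of the 17 listed class II presentation genes 16 were tested, and 3 were called, each lower, 2 of these in both fits (12.5%, near the 9.56% of all tested genes). HLA-DRA was at 809 and 961 FPKM untreated and 863 and 820.1 FPKM treated (difference -0.07 ± 0.46). CIITA, their master coactivator, was at 21.1 and 15.4 and 3.03 and 9.07 FPKM, a call (adjusted p = 0.022) lost with the class term (adjusted p = 0.14). Its difference of -1.58 was -2.24 with an adjusted p of 0.011 without treated library 1 and -0.92 with an adjusted p of 0.19 without treated library 0, and the call was also lost without either untreated library. For class I, 17 of 18 were tested, 5 were called lower and 1 higher, and 3 and 1 in both fits. These last shares were 17.6% and 5.88%, beside 9.56% and 9.65% of all tested genes. HLA-E rose from 89.9 and 78.5 FPKM to 393 and 313 FPKM (difference 2.05 ± 0.27), the peptide transporter subunit TAP2 fell from 29.96 and 39.4 FPKM to 10.4 and 7.8 FPKM (difference -1.82 ± 0.24), and HLA-B and HLA-C were uncalled, with differences of 0.05 and 0.32. Reads of HLA genes are shared between near-identical loci, so their values are uncertain.

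Of the cell cycle genes 46 of 49 listed were tested (1 was set aside), 16 were called lower and 4 higher, and 8 and 2 in both fits (17.4% and 4.35%). The 8 lower in both fits were CCND3, E2F2, CCNE2, E2F1, CCNE1, MCM3, MCM2 and RBL1. CCND3, a D-type cyclin of lymphocytes, fell from 257 and 217.5 FPKM to 14.2 and 16.6 FPKM (log2 difference -3.86 ± 0.27, adjusted p = 6.9e-06). E2F2 fell from 61.95 and 46.5 FPKM to 2.17 and 4.13 FPKM (difference -3.76 ± 0.28), E2F1 from 58.8 and 48 FPKM to 9.04 and 7.84 FPKM (difference -2.52 ± 0.27), and the replication helicase subunit MCM3 from 252 and 259 FPKM to 58.7 and 47.55 FPKM (difference -2.25 ± 0.30). CDKN1A, the inhibitor p21, rose from 35.9 and 74.1 FPKM to 328 and 285.5 FPKM (log2 difference 2.54 ± 0.34, adjusted p = 3.8e-04). Among mitotic genes, CDK1 and CCNB1 were uncalled, with differences of -0.16 ± 0.24 and 0.39 ± 0.32, and MKI67 was at 29.3 and 20.1 FPKM untreated and 23.9 and 23.6 FPKM treated. CDKN2A and CDKN2B were listed at 0 in all 4 libraries.

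Of the BCL2 family 14 of 18 listed were tested, 5 were called higher and 1 lower, and 4 and 1 in both fits (28.6% and 7.14%). The antiapoptotic members divided. BCL2A1 rose from 0 and 0.149 FPKM to 139.5 and 73.7 FPKM (log2 difference 6.58 ± 0.41, adjusted p = 3.4e-06), MCL1 from 36.1 and 39.5 FPKM to 434 and 328 FPKM (log2 difference 3.29 ± 0.25, adjusted p = 1.2e-05) and BCL2L1 from 23.7 and 22 FPKM to 65.85 and 70.5 FPKM (difference 1.54 ± 0.24). BCL2 fell from 50.3 and 45.6 FPKM to 7.99 and 11.6 FPKM (log2 difference -2.20 ± 0.26, adjusted p = 1.9e-04). The death effectors BAX and BAK1 were uncalled, with differences of 0.66 ± 0.37 and 0.08 ± 0.41.

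Lists of other lineages showed few tested members. Of 22 monocyte and granulocyte genes 6 were tested and 2 were called, MPO and TLR2, each lower in both fits. CD68, a lysosomal protein of macrophages, had the highest difference of the list and was uncalled, at 1.03 and 1.17 FPKM untreated and 6.97 and 2.73 FPKM treated (difference 1.38 ± 0.56, limma adjusted p = 0.072). The MPO difference was -2.13 ± 0.63, or -3.46 with the class term, and its call was lost without any 1 of the 4 Reh libraries, with adjusted p-values up to 0.11. TLR2 was at 1.23 and 1.66 FPKM untreated and 0.0601 and 0.322 FPKM treated, and its difference fell below the size threshold without untreated library 1 or treated library 0 (-0.91 and -0.88). Of 23 T and NK-cell genes 5 were tested and 2 were called higher in both fits, NKG7 from 2.82 and 3.1 FPKM to 8.19 and 12.7 FPKM and GZMB, which was listed at 0 in untreated cells and was 4.32 and 1.06 FPKM in treated ones. Of 14 erythroid and megakaryocyte genes only EPOR was tested, and it was uncalled. Among 6 tested reference genes, TFRC, the transferrin receptor, was called higher in both fits, from 90.8 and 143 FPKM to 604 and 408 FPKM (difference 2.11 ± 0.39), and the other 5 were uncalled. TBP and HPRT1 had differences of 0.40 ± 0.18 and 0.39 ± 0.31, and POLR2A, at 0.92, missed only the size threshold. B2M was at 1260 and 1494 FPKM untreated and 4341 and 2934 FPKM treated (difference 1.38 ± 0.51, limma adjusted p = 0.054). The remaining uncalled reference gene went the other way, with a difference of -0.92. Of 7 abundant non-coding RNAs only GAS5, the host of small nucleolar RNAs, was called, lower at 41.1 and 65 FPKM from 316 and 279 FPKM (adjusted p = 0.0065), a call lost with the class term (adjusted p = 0.06) and without treated library 0 (adjusted p = 0.066).

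**Figure D5:**
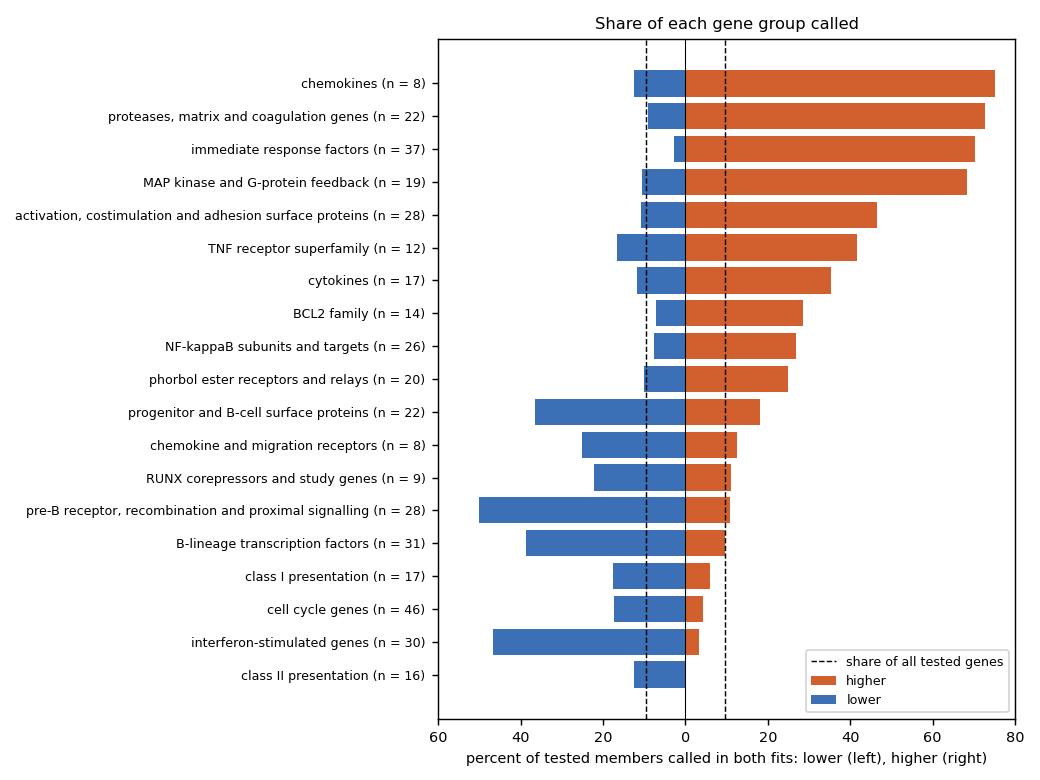
Percent of tested members of each gene group called higher (orange, right) or lower (blue, left) in both fits, for groups of 8 or more tested members. Dashed lines mark the shares of all tested genes, 9.65% higher and 9.56% lower. Apart from the pre-B receptor, interferon-stimulated and class I groups, each group plotted held between 1 and 9 tested members that passed the filter only through the treated libraries, so its share higher is in part set by the filter and is not read against the line. The pre-B receptor and interferon-stimulated groups had 50% and 46.7% of their tested members lower.

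Over all lists, 247 distinct members were called, 205 of them in both fits, and 183 of these 205 were called without each of the 4 Reh libraries in turn. Outside the lists, the 12 called genes with the largest increase included 10 that were called in both fits, and the 12 with the largest decrease only 5. The rest of these 24 genes differed in call between the fits and are not described by name.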

How the data were processed

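Total RNA was depleted of ribosomal RNA and sequenced in duplicate from stranded libraries. The authors deposited 1 table of FPKM for 26210 gene symbols and 12 libraries. Per the submitters' processing notes, TopHat2 2.0.11, Cuffnorm 2.2.1 and bedtools were used with hg19. Columns carry the suffix 0 or 1, which does not match the labels' replicate numbers, so it only names a library. The lists and the comparison were chosen with earlier results of these data known.

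Values were tested as log2(FPKM + 1) with limma 3.58.1 (R 4.3.3, trended eBayes) over all 12 libraries, with 1 mean for each of 6 groups (6 residual degrees of freedom) and Benjamini-Hochberg adjustment over genes at 1 FPKM or more in at least 2 of the 4 Reh libraries. The procedure was tested on simulated data. Values were named for the study's genes, for up to 8 called members in each direction and 4 abundant uncalled members of each list, for members near 0 by role, and for genes outside the lists as described there. Set aside were ribosomal protein genes, genes with many pseudogenes (listed by hand, or with 3 or more rows that RefSeq marks as their pseudogenes) and short RNA genes. RN7SK, RN7SL1 and RN7SL2 were not analysed here. Some list members counted in the group totals are not reported here by name. Older symbols in the table were matched to current ones.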

Additional observations from a re-analysis of the deposited data

How the results depend on the processing

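Counts of calls depended on the pseudocount. With a pseudocount of 5, 982 genes were called higher and 776 lower, as low genes then reach the size threshold less often by construction. Leaving out each Reh library in turn gave between 1136 and 1468 higher and between 1195 and 1510 lower calls, the lowest counts being those without treated library 0. In such a fit the lone library of a group is assumed to vary like the other groups. With the class term, chosen after seeing the data, 1402 genes were called higher and 1519 lower, 1148 and 1137 of them shared with the calls as reported, and 7 of the higher and 12 of the lower calls changed sign. Among 283 named results, 240 kept direction and side of the threshold with that term, 34 lost the call, 8 gained it, and PLCG2 turned to 0.29. In the other settings none turned, and between 0 and 37 lost the call. The share of calls that were higher was 46.5% as reported, and between 41.9% and 55.9% under the alternatives.

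The column suffix as a replicate block gave 1640 higher and 1903 lower calls. Deviations of same-suffix libraries had a correlation of -0.008 between untreated and treated Reh, so no pairing by suffix was seen between these groups. The difference between suffixes in untreated Reh had a correlation of 0.426 with that in Namalwa. What the suffix follows in these lines was not tested. Depth is unknown from FPKM, so no limit from counts can be given, and how far the class difference acts on Reh as it does on L1236 and L428 was not tested.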

Other observations

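Genes outside the lists were taken, after seeing the data, from those called in the same direction in both fits with a class difference under 1 in size and a mean of at least 5 FPKM in 1 of the 2 groups. The largest increases by this rule were in genes of varied roles. XIRP1, an actin-binding repeat protein, was listed at 0 in both untreated libraries and at 65.2 and 111 FPKM in the treated ones. PLEK, pleckstrin, a main PKC substrate of platelets, rose from 7.88 and 7.42 FPKM to 846 and 575 FPKM (difference 6.34 ± 0.58). VASP, a regulator of actin filament growth, rose from 19.1 and 22.8 FPKM to 832 and 621 FPKM (difference 5.04 ± 0.27), and NEDD9, an adhesion scaffold, from 2.4 and 1.06 FPKM to 74.5 and 79.4 FPKM (difference 4.88 ± 0.28). CAV1, caveolin, rose from 2.21 and 1.55 FPKM to 262 and 145 FPKM (difference 6.10 ± 0.36), KCNJ2, an inward rectifier potassium channel, from 2.31 and 2.61 FPKM to 283.5 and 227 FPKM (difference 6.20 ± 0.34), and TAGLN3, a calponin-related protein, from 1.16 and 0.307 FPKM to 211 and 115 FPKM (difference 6.54 ± 0.30). The secreted factors BMP2 and SERPINE2 rose from 1.51 and 2.26 FPKM to 77.15 and 114 FPKM and from 0.392 and 0.309 FPKM to 63.9 and 59.6 FPKM. HMGA2, a chromatin protein of fetal tissues, rose from 0.231 and 0.364 FPKM to 56.9 and 41.9 FPKM (difference 5.26 ± 0.19). ITGB2-AS1 rose from 0.147 and 0.0996 FPKM to 64.8 and 94.65 FPKM beside its sense partner ITGB2, and whether counting used strand is not given in the sources used here, so reads of the pair cannot be told apart. LINC00152 and MIR4435-2HG, near-identical non-coding genes, were both listed at 0 in untreated cells, and their division is uncertain.

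The largest decreases by the same rule included LAIR1, an inhibitory collagen receptor of leukocytes, which fell from 41.4 and 42.1 FPKM to 1.32 and 3.52 FPKM (log2 difference -3.72 ± 0.35, adjusted p = 4.9e-05). EFEMP1, an extracellular matrix protein, fell from 41.85 and 24.7 FPKM to 0.764 and 2.07 FPKM (difference -3.83 ± 0.31). HPS4, a lysosome-related organelle gene, fell from 144 and 96.5 FPKM to 7.88 and 12.1 FPKM (difference -3.46 ± 0.27), and CDCA7L, a MYC-interacting factor, from 86.35 and 88 FPKM to 5.99 and 9.03 FPKM (difference -3.40 ± 0.31). MXD3, a MAX-binding factor, fell from 53.4 and 42.3 FPKM to 3.95 and 3.46 FPKM (difference -3.37 ± 0.41). TERT, the catalytic subunit of telomerase, fell from 22.85 and 12.9 FPKM to 0.892 and 1.15 FPKM (difference -3.17 ± 0.30).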
